A study of Mus musculus with 4 samples.

Results

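The LIF and Stat3 signalling genes described here are 10 of the 22718 genes measured by RNA-seq in embryonic stem (ES) cells of the mouse, cultured cells from the early embryo that can form every tissue of the body. They were chosen by symbol: the ligand gene *Lif*, the receptor chain genes *Lifr* and *Il6st*, the kinase genes *Jak1* and *Jak2*, *Stat3* itself, and the Stat3 target genes *Socs3*, *Pim1*, *Pim3* and *Junb*. The groups are 1 library of a wild type line and 1 library labelled Prep1-/-, from the KO2 line; both lines are of the C57Bl6 strain and were grown on gelatin with LIF in the medium, with no other treatment given. The same study immunoprecipitated chromatin of wild type R1 ES cells with an antibody to Prep1, a homeodomain transcription factor encoded by *Pknox1*, in 1 library set against input DNA; the label of these samples gives the strain C57BL/6. Each genotype is thus 1 line and 1 library, so a difference between the libraries has no replicate check, no p-value is given, and line and genotype cannot be told apart.

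LIF (leukemia inhibitory factor) is a cytokine of the interleukin-6 family that keeps mouse ES cells from differentiating in culture. It joins its own receptor chain, encoded by *Lifr*, to gp130, the shared chain of the family, encoded by *Il6st*. Jak kinases bound to these chains phosphorylate Stat3, which moves into the nucleus and switches on its targets, including *Socs3*, whose product dampens the signal at the receptor. Because LIF was in the medium, the RNA level of *Lif* is what the cells made themselves and not the amount of cytokine they received. Stat3 is regulated by phosphorylation, and RNA levels do not measure it.

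Total deposited read counts were 29596294 for the wild type and 25717811 for the library labelled Prep1-/-. The study's methods give far fewer reads per sample than these sums, and why they differ was not tested. If the smaller number is the true depth, the intervals for counting error given below are too narrow. *Pknox1*, the targeted gene, kept reads in the latter (505 and 332 reads, KO/WT ratio 0.736), so each direction below rests on the label. The ES cell markers *Pou5f1*, *Sox2*, *Nanog*, *Zfp42* and *Dppa5a* were all read in both libraries and summed to 892 and 1050 RPKM, with none of the 5 called changed. Primitive endoderm markers summed to 10.2 and 5.79 RPKM and 3 of the 5 were called lower (*Gata4*, *Gata6* and *Dab2*). *Sox17* was also lower (KO/WT ratio 0.425), but its wild type RPKM of 0.301 was too low for a call. *Sox7* was higher (ratio 1.39) and not called. The 5 feeder or mesenchymal markers summed to 24.0 and 29.8 RPKM with none called, though all 5 had ratios above 1. *Postn* (6 and 33 reads, ratio 5.43) and *Col3a1* (27 and 37 reads, ratio 1.52) were too low in RPKM for a call. No marker of these lists was at 0 reads. The 4 chromosome Y genes examined (*Ddx3y*, *Eif2s3y*, *Uty* and *Ube1y1*) had between 24 and 310 reads in the library labelled Prep1-/- and 0 in the other, so the lines differ in more than *Pknox1*. The part of these differences in the results below was not tested.

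Most of the pathway differed little between the libraries. *Lifr* was nearly doubled in the library labelled Prep1-/- (KO/WT ratio 1.97) and *Junb* was much lower (ratio 0.511), while the other 8 genes had ratios between 0.770 for *Jak2* and 1.25 for *Il6st*. RPKM, which scales reads by gene length and library size, was taken as the authors deposited it, and the KO/WT ratio divides its value in the library labelled Prep1-/- by its wild type value. The calls use the study's ratio thresholds and its RPKM minimum, while the library that had to meet the minimum was chosen here. Lower means a ratio below 0.7 where the wild type RPKM is above 1. Higher means a ratio above 1.5 where the RPKM of the other library is above 1. None of the 10 genes was lost to the RPKM minimum of 1 in either library, and the fewest reads of any was 211. By these thresholds 1 of the 10 was lower and 1 was higher, against 13.3% lower and 6.91% higher among the 14254 genes with RPKM above 1 in either library, so the counts are near the background. The median log2 ratio over the 10 genes was -0.12 and over the 14254 genes -0.07. In such bulk samples, fewer cells of a type and less RNA per cell cannot be told apart.

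**Figure D1:**
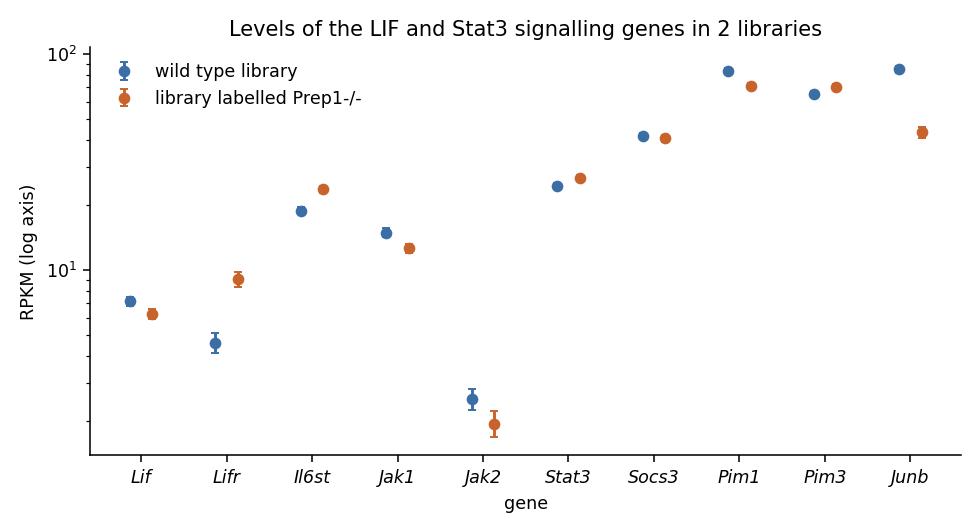
RPKM (log axis) of the 10 genes for the wild type and the library labelled Prep1-/-, 1 library each, with bars for the exact 95% Poisson counting interval. *Lifr* and *Junb* show the widest gaps between the libraries (4.59 and 9.02, 84.9 and 43.4 RPKM).

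The levels per length spanned from *Jak2* to the targets. In the wild type library the order by RPKM was *Junb* (84.9), *Pim1* (83.2), *Pim3* (65.3), *Socs3* (41.8), *Stat3* (24.5), *Il6st* (18.8), *Jak1* (14.9), *Lif* (7.15), *Lifr* (4.59) and *Jak2* (2.51). Only *Junb* and *Pim1* had overlapping counting intervals with their neighbour. On this scale the targets stood above *Stat3*, and *Stat3* above the receptor chains and kinases. In the library labelled Prep1-/- the order was *Pim1* (71.3), *Pim3* (70.2), *Junb* (43.4), *Socs3* (40.8), *Stat3* (26.7), *Il6st* (23.6), *Jak1* (12.6), *Lifr* (9.02), *Lif* (6.22) and *Jak2* (1.93). There *Pim1* overlapped *Pim3*, *Junb* overlapped *Socs3*, and *Lifr* had moved above *Lif*. The order depends on the gene length used. Relative to the median gene, the length behind the deposited RPKM was 2.38 times the summed exons of GENCODE M1 for *Lif* and 0.326 times for *Lifr*. With exon lengths *Pim1* ranked highest in both libraries, *Junb* was at rank 3 (wild type) and rank 4, and *Lifr* was at rank 10 and rank 9, below *Lif* in both. *Il6st* then stood at rank 5 and *Stat3* at rank 6 in both libraries, so *Stat3* is above both receptor chains only with the deposited lengths, while the 4 targets stay above it with either. The KO/WT ratios do not depend on length.

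*Lif* (ENSMUSG00000034394, chr11:4157560-4172517, plus strand) encodes the cytokine. Its reads numbered 1730 and 1346, or 7.15 and 6.22 RPKM, with the wild type value given before that of the library labelled Prep1-/- here and below. The ratio of 0.870 (exact 95% interval 0.810 to 0.935) is within the thresholds. These intervals come from the binomial share of reads and describe the counting error of this pair of libraries, so they say nothing of the spread between lines of a genotype.

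*Lifr* (ENSMUSG00000054263, chr15:7079559-7147489, plus strand) encodes the chain that binds LIF. It had 360 and 634 reads, or 4.59 and 9.02 RPKM. Its ratio of 1.97 (95% interval 1.73 to 2.25) was the only one of the 10 called higher, and only 223 of 13218 genes (1.69%; those whose RPKM passed 1 in both) had a higher ratio. *Lifr* stood above 56.1% of genes in the wild type and above 66.5% in the other library. Around it, 5 genes within 1 Mb had a median ratio of 0.987, and all of them had ratios below that of *Lifr* (0.595 to 1.24). On chromosome 15 as a whole, 7.37% of genes were called higher and 14.0% lower, and the median ratio was 0.929.

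*Il6st* (ENSMUSG00000021756, chr13:113265216-113297068, plus strand) encodes gp130, the chain that LIF shares with interleukin-6, oncostatin M and related cytokines. It had 2770 and 3105 reads, or 18.8 and 23.6 RPKM. The ratio was 1.25 (95% interval 1.19 to 1.32), above 1 by counting but under the threshold of 1.5. Both chains that hold LIF were thus read more in the library labelled Prep1-/-, and unequally. Per unit of *Il6st* RPKM, *Lifr* went from 0.244 (wild type) to 0.383, and the ratio of these was 1.57 (95% counting interval 1.36 to 1.81).

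No Prep1 peak lay at a start site of *Lifr* or *Il6st*. The nearest peak to *Lifr* (chr15:7006492-7007196, 705 bases, 29-fold over input as rounded by the authors, above 59.9% of peaks) was intergenic and ended 72.4 kb before the gene, which is the closest protein-coding gene to it. It is shown because it is the only peak within 100 kb of either end of *Lifr* or *Il6st*. A second reason is that it holds an open form (TGA, any base, TG, any base, CAG) of the Prep1 decamer, searched on both strands. The study gives this decamer with the ending ACAG. The 50 bases around the match, on the minus strand of mm9 (chr15:7006866-7006915), read as follows with the decamer in capitals.
Lifr distal peak: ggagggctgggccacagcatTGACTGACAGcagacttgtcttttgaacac
The match also has the ending ACAG. Of all 3902 peaks, 35.3% hold the open form and 24.3% the form with ACAG, so its presence here is a description and not evidence of a link between the peak and *Lifr*.

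*Jak1* (ENSMUSG00000028530, chr4:100824972-100937887, minus strand) encodes the kinase that gp130 signalling relies on most. It had 1953 and 1476 reads, or 14.9 and 12.6 RPKM, a ratio of 0.845 (95% interval 0.789 to 0.905). *Jak2* (ENSMUSG00000024789, chr19:29326318-29387570, plus strand), which encodes the kinase used mainly by hormone and growth factor receptors of the cytokine class, was the lowest of the 10 with 307 and 211 reads, or 2.51 and 1.93 RPKM. Its ratio was 0.770 (95% interval 0.642 to 0.919), and this interval reaches below the threshold of 0.7. Both kinase genes were read less in the library labelled Prep1-/-. The *Jak1* to *Jak2* ratio of RPKM was 5.92 and 6.50, which differ by less than the counting error (quotient 1.10, 95% interval 0.908 to 1.33). *Jak1* shares 4 bases with *Raver2* on the other strand.

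*Stat3* (ENSMUSG00000004040, chr11:100746412-100800854, minus strand) encodes the transcription factor at the centre of the pathway. It had 4441 and 4326 reads, or 24.5 and 26.7 RPKM, a ratio of 1.09 (95% interval 1.04 to 1.14). The interval lies above 1 and far under the threshold. Its end overlaps *Stat5a* on the other strand by 72 bases; *Stat5a*, which had 236 and 342 reads, is described with the other Stat factors.

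A Prep1 peak covered the 5′ end of *Stat3* (chr11:100800347-100801404, 1058 bases, 51-fold over input, above 73.4% of peaks), from position -550 to position 507. The 150 bases before the 5′ end of *Stat3* and, for comparison, of *Pim3*, the other of the 10 genes with such a peak, are given on the strand of the gene (mm9, chr11:100800855-100801004 and chr15:88692466-88692615), with each ATTGG in capitals. ATTGG is the reverse complement of the CCAAT box, the site of the NF-Y factor in many promoters.
Stat3: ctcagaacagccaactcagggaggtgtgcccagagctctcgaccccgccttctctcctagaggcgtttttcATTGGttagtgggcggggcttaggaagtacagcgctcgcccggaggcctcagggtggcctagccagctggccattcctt
Pim3: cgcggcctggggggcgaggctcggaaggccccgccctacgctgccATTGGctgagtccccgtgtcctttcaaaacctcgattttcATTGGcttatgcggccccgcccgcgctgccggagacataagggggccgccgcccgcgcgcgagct
The pentamer stands at positions -79 to -75 of *Stat3*, and at -105 to -101 and -65 to -61 of *Pim3*. On either strand, it occurs in such a window for 26.3% of 17895 protein-coding genes, and for 53.1% of the 1802 that have a Prep1 peak at a start site. The 17895 were not limited to expressed genes, and the open form of the Prep1 decamer can itself contain ATTGG. Why the shares differ was not tested. A search for exact letters found the Prep1 decamer in neither peak. It covered the open form, the form that ends in ACAG and a looser form in which the T of its TG may be any base. The 3 forms are in 25.0%, 15.4% and 39.3% of the 1661 peaks at a start site, and the last is in 47.2% of all peaks. The study used motif-finding programs and reported the decamer in a larger share of all peaks than any of the 3 forms reaches here. Whether that search would find it in either peak was not tested. How many peaks hold a sequence that differs from the form ending in ACAG at 1 base was not computed. The sequence in the *Stat3* peak closest to that form differs from it at 1 base. It lies at positions 59 to 68, within a *Stat3* exon, and is shown on the plus strand (chr11:100800776-100800805) with the 10 bases compared in capitals.
Stat3 peak, closest match: cggaaaccgcTGAATTACAGcccctccagc

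**Figure D2:**
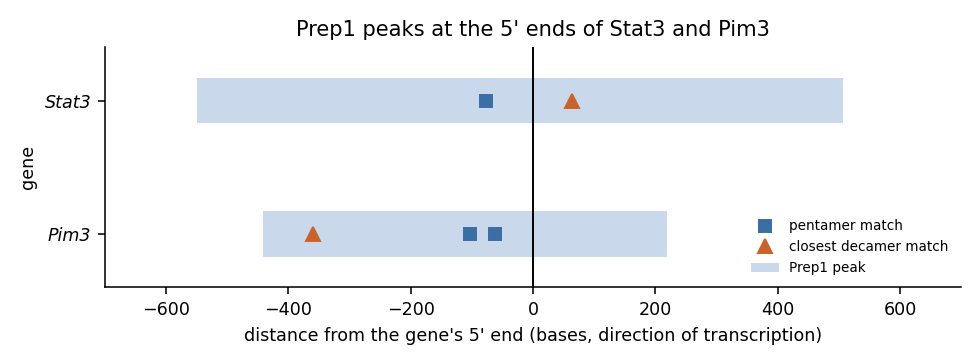
Extent of the Prep1 peak (bar) at *Stat3* and *Pim3* in bases from the 5′ end of the gene. Squares are the pentamer of the CCAAT box, and triangles are the sequence closest to the form of the Prep1 decamer that ends in ACAG. That sequence differs from the form at 1 base in the *Stat3* peak and at 2 bases in the *Pim3* peak. The *Stat3* peak runs from -550 to 507 and the *Pim3* peak from -442 to 219, and the pentamers lie before the 5′ end in both.

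*Socs3* (ENSMUSG00000053113, chr11:117827393-117831361, minus strand) encodes the feedback inhibitor of the receptor complex and is a rapid Stat3 target. It had 3309 and 2885 reads, or 41.8 and 40.8 RPKM. The ratio of 0.975 (95% interval 0.927 to 1.03) was the only one of the 10 whose counting interval included 1. Its direction is not settled, since scaling by the summed reads, by the median ratio or by TMM (a trimmed mean of ratios between libraries) put it above 1, at up to 1.02. Stat factors bind the letters TTCNNNGAA, and 14.5% of 64024 windows from -500 to 100 of annotated start sites of protein-coding genes hold them. Of the 37 such windows of the 10 genes 5 hold them (13.5%), near the background; they belong to *Lif*, *Stat3* and *Socs3*. The *Socs3* matches lie within 100 bases before annotated start sites inside the gene (117830500 and 117830765), in sequence that is also *Socs3* intron. They are given on the minus strand (chr11:117830543-117830571 and chr11:117830816-117830844), the match in capitals, because *Socs3* is the target with the least difference between the libraries.
Socs3 TTCCAGGAA: ggccgggcagTTCCAGGAAtcggggggcg
Socs3 TTCTTAGAA: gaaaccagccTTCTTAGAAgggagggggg

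*Pim1* (ENSMUSG00000024014, chr17:29627757-29632390, plus strand) and *Pim3* (ENSMUSG00000035828, chr15:88692616-88696150, plus strand) encode related serine/threonine kinases that promote survival and self-renewal. *Pim1* had 4137 and 3167 reads, or 83.2 and 71.3 RPKM, a ratio of 0.856 (95% interval 0.817 to 0.897). *Pim3* had 3875 and 3727 reads, or 65.3 and 70.2 RPKM, a ratio of 1.08 (95% interval 1.03 to 1.13). Both stayed within the thresholds, on opposite sides of 1. The *Pim1* to *Pim3* ratio of RPKM was 1.27 (wild type) and 1.01, with a quotient of 0.796 (95% counting interval 0.746 to 0.849). *Pim1* overlaps the lincRNA *Gm16912* of the other strand by 1114 bases, and how much of its reads come from the overlap was not tested. The Prep1 peak at *Pim3* (chr15:88692174-88692835, 662 bases, 11-fold, above 11.6% of peaks) was weaker than that at *Stat3*. A second peak, 28.6 kb after the 5′ end of *Pim3*, was 33-fold over input.

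*Junb* (ENSMUSG00000052837, chr8:87500811-87502617, minus strand) encodes a subunit of the AP-1 transcription factor and responds early to LIF. It had 2710 and 1238 reads, or 84.9 and 43.4 RPKM, and a ratio of 0.511 (95% interval 0.477 to 0.547). It was the only one of the 10 called lower, and 255 of 13218 genes (1.93%) had a lower ratio. Against *Socs3*, another rapid target, *Junb* stood at 2.03 (wild type) and 1.06, with a quotient of 0.524 (95% counting interval 0.481 to 0.570). Against *Jun*, which encodes another AP-1 subunit, it stood at 3.60 and 2.31, with a quotient of 0.641 (0.589 to 0.698). The 4 targets therefore did not share a direction: *Junb* was lower by over the threshold, *Pim1* was slightly lower, *Pim3* slightly higher, and *Socs3* did not differ by more than counting error.

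Many genes on the chromosome of *Junb* had ratios below 1. Chromosome 8 as a whole was lower in the library labelled Prep1-/-, with a median ratio of 0.779 over 702 genes and 30.7% of 749 genes called lower against 3.07% called higher. Within 1 Mb of *Junb*, 51 genes had a median ratio of 0.759, and 15 of them were below 0.7. Divided by the chromosome median, the ratio of *Junb* was 0.656, still below 0.7. On the chromosome 42 of 702 genes (5.98%) had a lower ratio than *Junb*, and 6 of its 51 neighbours did. These 6 include the microRNA genes *mmu-mir-27a*, *mmu-mir-24-2* and *mmu-mir-1199*, which are so short that few reads can pass the RPKM minimum. How far the difference of the whole chromosome contributes to *Junb* was not tested.

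**Figure D3:**
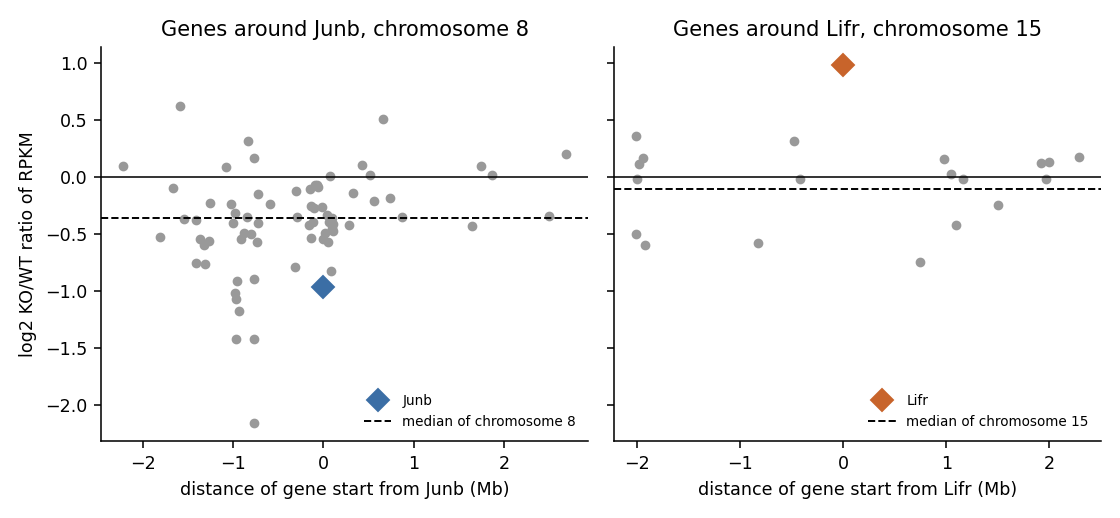
Log2 KO/WT ratio of RPKM for expressed genes up to 3 Mb from *Junb* (left) and *Lifr* (right), by distance in Mb; diamonds are *Junb* and *Lifr*, points are other genes and dashed lines are chromosome medians. Genes around *Junb* lie mostly below 0, near the chromosome 8 median ratio of 0.779, and *Lifr* lies above all the genes around it.

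**Figure D4:**
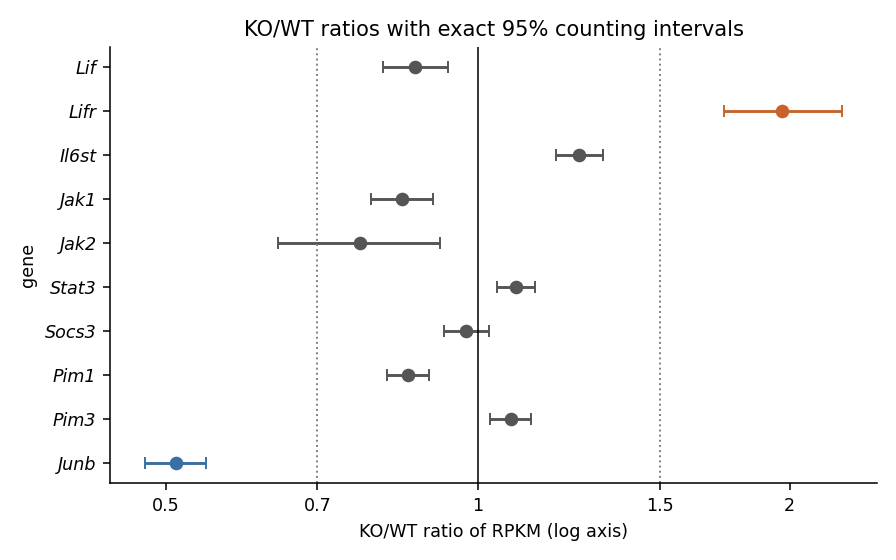
KO/WT ratio of RPKM (log axis) of the 10 genes with exact 95% counting intervals; the solid line is 1 and the dotted lines are the thresholds of 0.7 and 1.5. *Lifr* (1.97) and *Junb* (0.511) lie outside the dotted lines, and only the interval of *Socs3* includes 1.

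By counting error alone, 5 of the 10 genes (*Lif*, *Jak1*, *Jak2*, *Pim1* and *Junb*) were below 1 and 4 (*Lifr*, *Il6st*, *Stat3* and *Pim3*) were above it. Among the 14254 genes the shares were 36.3% and 20.7%, so counting intervals that leave out 1 are common between these libraries. By role, the ligand and both kinases were below 1, and both receptor chains and *Stat3* above it, as the plot of ratios shows.

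Prep1 peaks overlapped a start site (-500 to 100) of 2 of the 10 genes, *Stat3* and *Pim3*, against 8.59% of 21446 annotated genes and 11.8% of the 13650 of these with RPKM above 1 in either library. Both bound genes had ratios within the thresholds (1.09 and 1.08), and neither *Lifr* nor *Junb*, the genes outside them, had a peak at a start site. How often all genes with such a peak are called was not computed. With so few genes, the lack of overlap is a description only. No peak lay within 100 kb of either end of *Il6st*, *Jak1*, *Socs3* or *Junb*. The peak nearest *Lif* lies at *Tbc1d10a*, and those nearest *Jak2* and *Pim1* were 110 and 97.0 kb from the 5′ end of the gene. The *Jak2* peak lies past the other end of the gene and within 100 kb of that end.

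The other genes of the pathway, a list of 48 by role, of which 41 had RPKM above 1 in either library, had 6 members called lower and 3 called higher. These are 14.6% and 7.32% of the 41, near the 13.3% and 6.91% of the 14254 genes with RPKM above 1 in either library. Their median log2 ratio was -0.14, beside -0.07 for the 14254 genes. One of the 6 is a row with the symbol *Jund* (16 and 6 reads) whose identifier GENCODE M1 gives to *Gm11175*, so 5 of 47 were lower without it. None of the 6 ligands was called, and the highest of them, *Cntf* (a related neurotrophic cytokine), had 6.23 and 6.02 RPKM.

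Among the other receptor chain genes, *Cntfr*, which encodes the chain that binds Cntf, was the highest at 85.5 and 62.8 RPKM (ratio 0.734), just inside the threshold. Neither of the remaining kinases was called, with *Jak3* at 12.8 and 13.2 RPKM.

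The Stat factors other than *Stat3* did not move together: 1 of 6 was called lower and 2 higher. *Stat6*, which acts in interleukin-4 signalling, had 1206 and 531 reads, or 10.7 and 5.25 RPKM (ratio 0.493, 95% interval 0.444 to 0.546), and was the highest of the 6 in the wild type library. *Stat4*, used by interleukin-12, had 140 and 240 reads, or 2.39 and 4.57 RPKM (ratio 1.91, 1.55 to 2.38). *Stat5a* had 1.43 and 2.31 RPKM (ratio 1.62, 1.37 to 1.92), while its close paralog *Stat5b* had 3.57 and 2.93 RPKM (ratio 0.820, 0.734 to 0.915). Relative to *Stat5b*, *Stat5a* was higher by a quotient of 1.97 (95% counting interval 1.61 to 2.42), and relative to *Stat3*, whose end it overlaps, by 1.49 (1.25 to 1.77). Reads that fit either paralog were shared out by RSEM, so the split is uncertain.

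Of 15 inhibitor and phosphatase genes 1 was called lower and none higher. *Socs5*, which encodes a relative of Socs3, had 1037 and 580 reads, or 7.55 and 4.72 RPKM (ratio 0.626, 95% interval 0.564 to 0.693). The highest of the class by deposited RPKM in the wild type library, *Pias4*, a SUMO ligase that restrains Stat activity, had 49.9 and 43.2 RPKM (ratio 0.866). The 14 target and related genes had 3 called lower, including the *Jund* row, and 1 higher. *Klf4*, a Stat3 target and pluripotency factor, was higher with 5270 and 7467 reads, or 52.8 and 83.7 RPKM (ratio 1.58, 1.53 to 1.64). *Klf5*, another such factor, was the highest of the class at 178 and 201 RPKM (ratio 1.13, 1.09 to 1.16). *Bcl6*, a transcriptional repressor, had 333 and 186 reads (ratio 0.626, 0.519 to 0.750), and *Fos*, the AP-1 partner of the Jun proteins, had 198 and 121 (ratio 0.685, 0.540 to 0.861). The call of *Fos* was lost, with a ratio above 0.7, under each of the 3 other scalings of the libraries, with its chromosome median set to 1 and with a pseudocount of 1 (0.760).

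**Figure D5:**
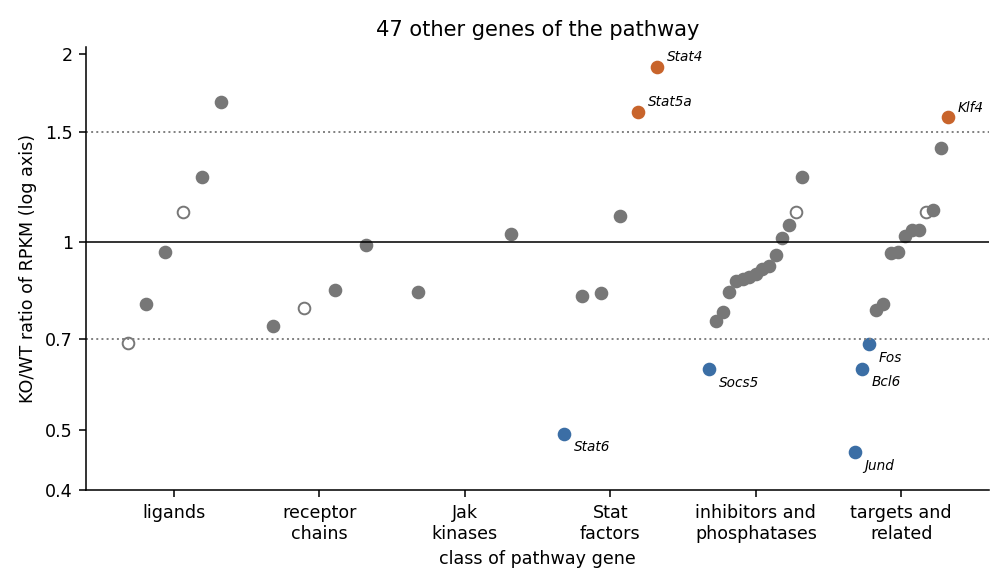
KO/WT ratio of RPKM (log axis) of 47 of the other genes of the pathway by class; blue and orange points were called lower and higher, grey points were not called, open points had under 20 reads in the libraries together, and dotted lines mark 0.7 and 1.5. The lowest point drawn, at 0.460, is named *Jund* and is the row given to *Gm11175*, and *Stat4* is highest at 1.91.

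A Prep1 peak lay at a start site of 6 of the 47 other pathway genes whose identifier is in GENCODE M1 (12.8%), against 8.59% of all annotated genes and 11.8% of those with RPKM above 1 in either library. They were *Stat6*, *Socs5*, *Klf5*, *Stat2*, *Cish* and *Il11ra1*, the last 3 named after their values were seen. *Stat6* and *Socs5* were among those called lower, and *Klf5* was not called. *Stat2* and *Cish*, which encodes a Socs family inhibitor, had ratios of 0.830 and 0.773, and *Il11ra1* had under 20 reads. Of the 14254 genes with RPKM above 1 in either library 13.3% were called lower. The share called lower among all genes with a Prep1 peak at a start site was not computed, so these calls are a description.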

How the data were processed

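RNA-seq of 1 wild type and 1 Prep1-/- ES line and the Prep1 peaks of 1 ChIP library were analysed. The authors sequenced paired-end 50 bp mRNA reads, assigned them to Ensembl release 63 genes (mm9) with RSEM and used DESeq; program versions are not given in the sources used here. They deposited whole-number counts without normalization, and RPKM, which the values show was made from the count plus 1; 85 genes with RPKM listed as Inf were left out of ratios. The authors mapped 36 bp ChIP reads with BWA and called peaks with MACS against input; the deposited score is the fold enrichment rounded to whole numbers. Peak starts were read as 1-based, since start and end then give the length the study lists.

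KO/WT ratios used the deposited RPKM. Intervals are exact (Clopper-Pearson, 95%) for the share of reads, times the scale of 1.12 between RPKM and counts; Poisson intervals were used for levels. Reads are not independent molecules, so both cover counting error only. With 1 library per genotype no count test was run. The ratio intervals were tested on simulated Poisson counts. That is the error they assume, so the simulation cannot show how they hold for real reads. GENCODE M1 held 21446 of the genes and all 10 members, and sequences are from NCBIM37 (mm9).

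Members and lists were chosen with earlier results of these data known. Genes named are the 10 members, *Pknox1*, cell type markers, and from the pathway list each gene past a threshold with at least 20 reads plus the highest of each class; others named were chosen after their values were seen. One gene of the pathway list is counted but not reported here. No gene is named for a similar pattern, since 2 libraries give a single ratio. Alternatives were 3 other scalings (summed reads, median ratio, TMM from edgeR 4.0.16), pseudocounts of 0.1 and 1, division by the chromosome median, other RPKM filters and thresholds, and other peak windows, peak sets and motifs. Software comprised R 4.3.3, pysam 0.24.0, scipy 1.17.1, pandas 2.3.3, numpy 2.4.6, matplotlib 3.10.9 and Python 3.11.15.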

Additional observations from a re-analysis of the deposited data

How the results depend on the processing

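No paired analysis was possible because each genotype has 1 library, and for the same reason no library could be left out. With thresholds of 0.5 and 2, members called lower and higher were 0 and 0, and other pathway genes 3 and 0. Other pathway genes called lower were also 3 with a pseudocount of 1 and 3 with RPKM above 5 in either library, where 1 was called higher; the cause was not tested. *Fos* lost its call under each other scaling, the chromosome median and a pseudocount of 1, and *Bcl6* and *Stat5a* lost theirs with that pseudocount. With the higher-scoring peaks only, 1 member (*Stat3*) had a peak at a start site. The remaining 53 values under alternatives stayed within 1.5 times the reported count or, for medians, kept their sign, with the members between -0.12 and -0.05 (log2). *Lifr* ranged from 1.79 to 2.12 and *Junb* from 0.511 to 0.656, the latter with the chromosome median set to 1; *Socs3* was the only member to change direction. The other scalings shifted the median of all genes by at most 0.07 (log2). Without replicates, depth limits only the counting error, which was widest for *Jak2* and *Lifr*. The row with the symbol *Jund* was left out as an alternative chosen after seeing the data.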
